A study of Mus musculus with 8 samples.

Results

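Mouse embryonic stem cells (ESC) without Lmnb1 and Lmnb2, the genes of the B-type lamins, and the trophectoderm (TE) cells made from them were compared on 4 two-colour Agilent arrays, which are the 2 arrays titled as lamin B null ESC and the 2 titled as lamin B null TE, out of 8 arrays in all. The members were chosen by these titles and not by any measured value. The other 4 arrays held wild-type ESC and wild-type TE, with 2 arrays each, and are used below only to ask where the lamin B null cells differed from them. The lines came from blastocysts of crosses between mice heterozygous for both lamin genes, were male and of mixed C57BL/6 and 129 background, and all of them, wild type included, carried a randomly inserted Cdx2ER transgene driven by the CAG promoter and selected with 1 µg/ml puromycin. ESC were grown without tamoxifen. TE cells were made with 1 µg/ml 4-hydroxytamoxifen for 2 days in 30% TS medium with 100 nM FGF4 and 1 µg/ml heparin, and then kept for 6 days in 100% TS medium. The labels name 2 independent cell lines per genotype and do not say which array carried which line, so the p-values measure the spread between these arrays. The wild-type TE labels disagree with themselves, since they give a wild-type genotype and a knockout as the genetic modification.

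B-type lamins are filament proteins that line the inner face of the nuclear envelope and form, with the A-type lamins, the nuclear lamina. Trophectoderm is the outer layer of the blastocyst, the first lineage to separate from the cells that give rise to the embryo and to ESC, and it forms the trophoblast of the placenta. Cdx2 is a transcription factor of that lineage, and a fusion of Cdx2 with the hormone-binding part of the estrogen receptor (ER) enters the nucleus when tamoxifen is added, which drives ESC towards trophectoderm. TS medium, FGF4 and heparin are the conditions in which trophoblast stem cells are grown.

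Each array carried the RNA of 1 sample in green (Cy3) and a common reference in red (Cy5). The reference was mixed from 2 parts of a pool of 11 mouse cell lines and 1 part of 129 ES cell RNA. Values below are log2 ratios of sample over reference, and a change is TE minus ESC on that scale unless the sample channel is named. The array held 42006 probes of 60 bases, each listed by a probe number and its sequence and without a gene name, so probes are identified here by number and sequence. Of these, 27359 were tested, those for which 1 group or more had its sample signal flagged as well above background on each of its arrays. No probe was matched here to Lmnb1, Lmnb2, Cdx2 or a marker of either cell type, so neither the deletion nor the labelled cell type was checked on these arrays. All ESC arrays lay on 1 slide and all TE arrays on another, so that slide and cell type cannot be told apart within a genotype, while the difference between genotypes is taken within slides. In bulk RNA, a change in the share of cells that express a transcript and a change in RNA per cell cannot be told apart.

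The sequences of the probes that moved most are shown first, because the probe sequence is the identity of each transcript measured here. All are written 5′ to 3′ as the scanner files list them. The 5 largest rises among probes above background on all 4 arrays were measured by these probes:
Z00019741-1: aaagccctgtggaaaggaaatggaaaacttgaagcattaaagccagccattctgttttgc
Z00016189-1: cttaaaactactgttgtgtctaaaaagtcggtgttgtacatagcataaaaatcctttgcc
Z00024159-1: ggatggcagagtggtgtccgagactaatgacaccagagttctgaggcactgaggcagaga
Z00034303-1: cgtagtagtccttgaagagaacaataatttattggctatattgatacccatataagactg
Z00010216-1: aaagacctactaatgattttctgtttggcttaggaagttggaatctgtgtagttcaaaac

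The 5 largest falls among probes above background on all 4 arrays were measured by these:
Z00038583-1: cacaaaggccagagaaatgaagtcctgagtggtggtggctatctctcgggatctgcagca
Z00003616-1: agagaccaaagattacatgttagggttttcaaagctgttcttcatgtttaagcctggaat
Z00063643-1: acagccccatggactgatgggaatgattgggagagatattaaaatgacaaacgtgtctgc
Z00074667-1: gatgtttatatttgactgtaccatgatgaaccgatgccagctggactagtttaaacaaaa
Z00034687-1: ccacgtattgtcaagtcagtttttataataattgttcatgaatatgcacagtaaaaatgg

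The probes with the largest sample-channel fold among those gained, meaning not above background on either ESC array and above it on both TE arrays, were the first 3 of the next lines, and the 2 with the largest fold among those lost, the reverse pattern, follow them:
Z00060770-1: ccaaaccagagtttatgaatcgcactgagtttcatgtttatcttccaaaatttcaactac
Z00073020-1: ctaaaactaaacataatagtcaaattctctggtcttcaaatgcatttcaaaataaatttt
Z00043023-1: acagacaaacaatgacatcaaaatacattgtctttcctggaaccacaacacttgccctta
Z00009096-1: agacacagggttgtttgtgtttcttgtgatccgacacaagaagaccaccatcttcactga
Z00032042-1: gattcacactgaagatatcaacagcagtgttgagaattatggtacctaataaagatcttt

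Without B-type lamins, the change from ESC to TE reached much of the measured transcriptome. Of the 27359 probes, 14309 were called at an adjusted p under 0.05 by limma with Benjamini-Hochberg adjustment, which is 52.3% of those tested. Of the called probes, 7572 were higher in TE (27.7% of those tested) and 6737 were lower (24.6%). The ESC and TE arrays did not overlap at any of the 14309 called probes, and they did not overlap at 22066 of all tested probes. The standard deviation of the change over all tested probes was 1.29, against 0.29 for the difference between the 2 ESC arrays and 0.38 for that between the 2 TE arrays. Across probes, which are not independent of each other, the ratios of the 2 ESC arrays correlated with r = 0.96 and those of the 2 TE arrays with r = 0.94, while an ESC array and a TE array correlated with r = 0.18 to 0.22. The TE arrays were thus somewhat less alike than the ESC arrays, with 634 probes more than 2-fold apart between the TE arrays and 280 between the ESC arrays.

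The balance between higher and lower probes rested on how the arrays were centred. With loess, which removes a trend of the ratio with intensity on each array, 52.9% of the called probes were higher in TE. With median centring, which removes 1 constant per array, 7789 probes were called, 2718 higher and 5071 lower, so that 34.9% were higher, and the median change over all probes moved from 0.08 to -0.05. Of the 7789 probes, 7676 were also called after loess. The counts of higher and lower probes below are given after loess. The lamin B null comparison has 26 probes that are named here by rule. All of them kept their direction and their call under each of the settings in which they were tested. They were picked for large changes, so this does not extend to other probes.

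**Figure D1:**
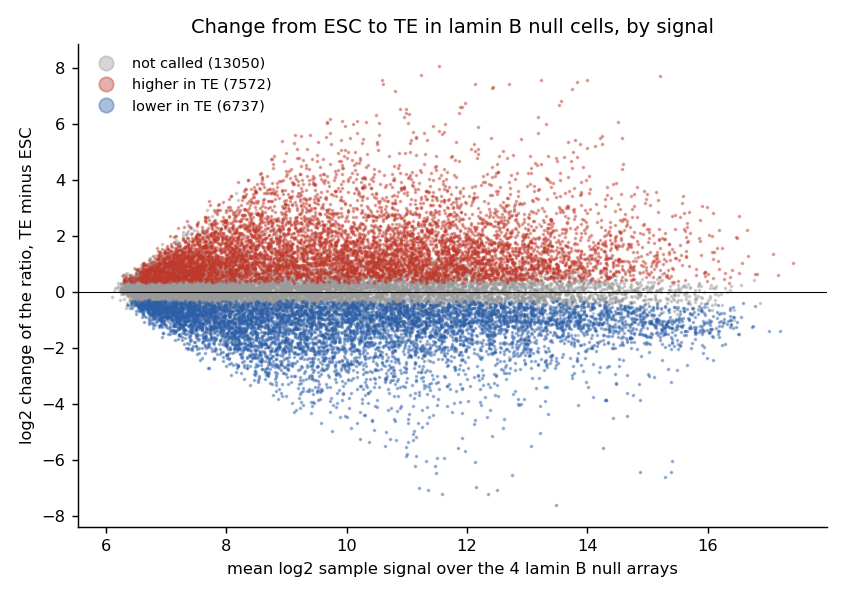
Each point is 1 of the 27359 tested probes, with its mean log2 sample signal over the 4 lamin B null arrays on the horizontal axis and its log2 change of the ratio from ESC to TE on the vertical axis. The 7572 probes called higher in TE are red, the 6737 called lower are blue and the 13050 not called are grey, and the spread of changes is narrow at dim probes and widens towards brighter ones.

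The size of the change was mostly moderate, with a tail that reached further upwards than downwards. Changes below 2-fold made up 2722 of the rises and 2845 of the falls, and changes of 2-fold to 4-fold made up 2975 rises and 2747 falls. Calls of 2-fold or more came to 8742 in all. A change of 4-fold or more was called for 1875 probes higher in TE (6.85%) and 1145 lower (4.19%). Changes of 4-fold to 8-fold were called for 1180 higher and 816 lower probes, of 8-fold to 16-fold for 438 and 226, of 16-fold to 32-fold for 165 and 63, and above 32-fold for 92 and 40. This surplus of large rises turned with the centring: after median centring 1097 probes were at least 4-fold higher and 1737 lower. With the scanner's own processed signals, which have no offset, 3240 were at least 4-fold higher and 2674 lower.

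**Figure D2:**
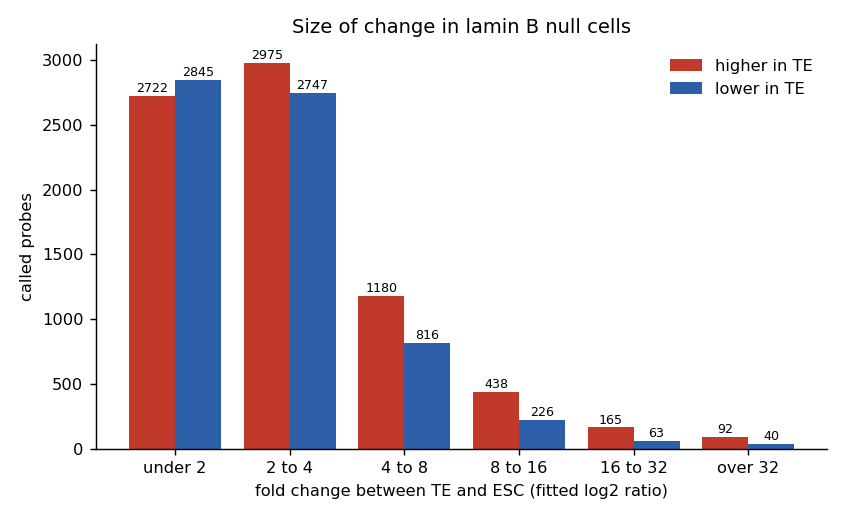
Bars count the called probes of lamin B null cells by fold change between TE and ESC, with rises in red and falls in blue and the number above each bar. Rises outnumber falls in every class from 2-fold upwards, from 2975 against 2747 at 2-fold to 4-fold to 92 against 40 above 32-fold, in values normalized by loess.

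The probe with the largest rise among those detected throughout, Z00019741-1, read -4.34 and -4.02 on the lamin B null ESC arrays and 4.33 and 3.43 on the TE arrays. Its transcript was far below the reference in ESC and far above it in TE, and arrays that did not overlap between the groups were required for naming. The change was 8.06 (SE 0.42, adjusted p = 5.8e-05), a 267-fold rise of the ratio. Z00034303-1 read -5.68 and -5.19 in ESC and 2.27 and 1.96 in TE, a change of 7.55 (SE 0.25, adjusted p = 2.08e-05). Its arrays lay closer together than those of Z00016189-1, which read -6.45 and -4.96 in ESC and 2.57 and 1.51 in TE. The change of Z00016189-1 was 7.74 with an SE of 0.76 (adjusted p = 0.000379), the widest error of the 5 largest rises. Z00024159-1 read -4.07 and -3.63 in ESC and 3.87 and 3.81 in TE, and Z00010216-1 read -6.39 and -5.51 in ESC and 1.82 and 1.37 in TE, so that all 5 were below the reference on both ESC arrays and above it on both TE arrays. Dim ESC signals underlie the folds of Z00019741-1 (log2 sample signal 7.38 and 7.79), Z00016189-1 (6.85 and 8.23) and Z00034303-1 (6.89 and 7.14). The weakest flagged signals of these ESC arrays were 6.39 and 6.37. Each of these probes was above background on only 1 wild-type ESC array.

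The largest falls had the opposite pattern. Z00038583-1 read 1.65 and 1.50 in ESC and -5.76 and -6.31 in TE, a change of -7.61 (SE 0.43, adjusted p = 7.12e-05), or a 195-fold fall. The transcript was thus moderately above the reference in ESC and far below it in TE. Z00003616-1 read 1.94 and 1.83 in ESC and -5.26 and -5.43 in TE, a change of -7.23 (SE 0.37). Z00063643-1 read 2.73 and 2.39 in ESC and -4.65 and -4.67 in TE, a change of -7.22 (SE 0.57, adjusted p = 0.000185). The 2 remaining falls, Z00074667-1 and Z00034687-1, changed by -7.08 (SE 0.48) and -7.07 (SE 0.51). All 5 were chosen among probes well above background on both TE arrays, so they were lowered and not lost.

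Among the brightest probes, those in the top quintile of mean sample signal, the 3 largest rises not already named were Z00025177-1, Z00017989-1 and Z00023022-1. They are shown because their signals left background far behind:
Z00025177-1: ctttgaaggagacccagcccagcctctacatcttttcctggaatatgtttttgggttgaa
Z00017989-1: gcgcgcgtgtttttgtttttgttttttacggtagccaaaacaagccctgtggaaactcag
Z00023022-1: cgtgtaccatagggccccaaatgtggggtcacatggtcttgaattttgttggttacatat

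Z00023022-1 read -3.57 and -3.59 in ESC and 3.88 and 3.80 in TE, a change of 7.42 with an SE of 0.12 (adjusted p = 7.72e-06). It had the smallest SE of the probes named by rule. Z00017989-1 read -5.07 and -5.20 in ESC and 2.28 and 2.39 in TE, a change of 7.47 (SE 0.21, adjusted p = 1.79e-05). Z00025177-1 varied more, at -5.38 and -4.20 in ESC and 3.21 and 2.29 in TE, and its change of 7.54 had an SE of 0.78. Bright falls were of similar size:
Z00005214-1: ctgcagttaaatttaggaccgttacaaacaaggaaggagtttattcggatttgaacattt
Z00031972-1: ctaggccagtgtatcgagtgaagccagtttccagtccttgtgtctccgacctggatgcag
Z00072411-1: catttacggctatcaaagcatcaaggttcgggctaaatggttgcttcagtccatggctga

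Z00005214-1 read 2.11 and 1.74 in ESC and -5.02 and -5.05 in TE, a change of -6.96 (SE 0.72, adjusted p = 0.000448). Z00031972-1 read 1.90 and 1.20 in ESC and -5.03 and -5.07 in TE, a change of -6.60 (SE 0.30, adjusted p = 4.22e-05). Z00072411-1 changed by -6.53 (SE 0.32), from 2.48 and 1.80 to -4.48 and -4.30. The rule that named these 3 required ESC and TE arrays that did not overlap. The wild-type TE arrays, which enter the pooled SE of Z00005214-1, read -3.29 and -5.78 there.

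**Figure D3:**
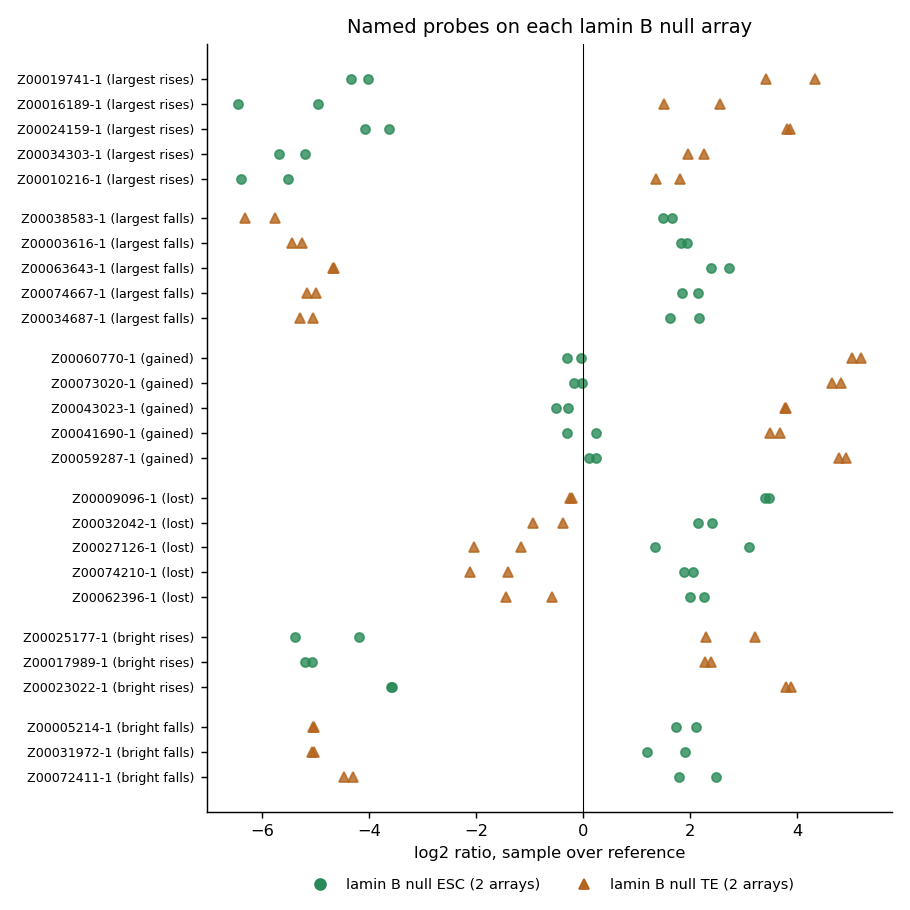
The log2 ratio of sample over reference is shown for 26 probes on each of the 2 lamin B null ESC arrays (green circles) and the 2 TE arrays (brown triangles), with probes grouped as largest rises and falls, gained, lost, and bright rises and falls. In every probe shown the ESC and TE arrays lie apart, which the rule for naming them required. Gained probes sit near 0 in ESC, where both channels are dim, and Z00016189-1, Z00025177-1 and Z00027126-1 have the widest spread between ESC arrays.

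Most of the transcriptome seen in TE was already seen in ESC. On all 42006 probes, 22823 were above background on all 4 lamin B null arrays, 11410 on none, and 5609 on some arrays without a clean pattern. Against these, 1523 were gained and 641 were lost. Of the 1519 gained probes that were tested, 627 were called higher in TE by the adjusted p, with a median change of 0.58. Of the 640 lost probes tested, 370 were called lower, with a median change of -0.54. These directions follow from how the classes are made and are a description. By number, most large changes came from probes detected throughout, which made up 83.3% of the tested probes: 1668 of the 1875 probes at least 4-fold higher and 1050 of the 1145 at least 4-fold lower were above background on all 4 arrays, against 136 gained and 37 lost. As shares of each class, 8.95% of the gained probes and 7.32% of those detected throughout were at least 4-fold higher. At least 4-fold lower were 5.78% of the lost probes and 4.61% of those detected throughout. These shares are not like for like. Gained probes had 0 calls lower and lost probes 0 calls higher, while probes detected throughout were called both ways.

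The gained and lost probes were dim even where they were detected. The gained probes had a median log2 sample signal of 7.01 in TE, with 80% of them between 6.61 and 8.54, while the probes seen on all 4 arrays had a median of 9.66 in TE. Of the 1519 gained probes, 68 exceeded that median. The lost probes had a median of 7.07 in ESC, and 10 of 640 exceeded the median of 9.65 of the probes seen on all 4 arrays. The number of gained and lost probes depended on the flag. With the scanner's flag for a positive and significant signal there were 1156 gained and 502 lost. With the weakest flagged signal of each array as the limit there were 1044 gained and 1 lost, because that limit was 4.89 on the log2 scale on lamin B null TE replicate 2 and 6.37 to 6.45 on the other lamin B null arrays. That array also had the most probes above background, 28556, against 25408 to 26018 on the other lamin B null arrays.

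In the wild type most of the gained probes were gained as well, while most of the lost probes fell into other classes. Of the 1523 probes gained in lamin B null cells, 1024 were gained in wild-type cells, 405 were detected there on some arrays, 90 on none, 4 on all 4 and 0 showed the reverse pattern. Of the 641 lost, 165 were lost in wild-type cells, 327 were partial, 137 were detected on none, 8 on all 4 and 4 were gained. The wild-type ESC arrays had 19764 and 23906 probes above background, below every lamin B null array, so the classes of the genotypes were cut at unequal depth. In total, 2738 probes were gained and 285 lost in the wild type.

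For the gained and lost probes folds are also given in the sample channel, as at least N-fold. They are the mean of the bright group over the mean of the dim group, where a dim array counts at the probe's own signal or at the weakest signal that this array flagged as well above background, whichever is higher. These folds set Cy3 on 1 slide against Cy3 on another and are open to differences between slides. The words at least cover the dim arrays only and not such differences. Z00060770-1 had log2 sample signals of 6.16 and 6.44 in ESC and 12.28 and 14.10 in TE, at least 110-fold higher, and its ratio changed by 5.28 (SE 0.79, adjusted p = 0.00187). Z00073020-1 went from 6.51 and 6.67 to 12.81 and 13.83, at least 106-fold higher (adjusted p = 0.000676). These probes were at background in ESC and among the brighter probes of the array in TE. Z00043023-1 went from 6.13 and 6.41 to 12.01 and 13.86, at least 92.7-fold higher (adjusted p = 0.00193). The other 2 named gained probes, Z00041690-1 and Z00059287-1, were at least 90.1-fold and 77.6-fold higher. The reference signal rose with the sample at all 5, by 1.61 at Z00060770-1 to 3.02 at Z00041690-1 on the log2 scale, so that the ratio gave smaller rises, from 12.2-fold at Z00041690-1 to 39.0-fold at Z00060770-1. At all 5 the TE arrays differed clearly in brightness, replicate 2 being the brighter, although their ratios lay close together (5.03 and 5.20 for Z00060770-1, 3.78 and 3.80 for Z00043023-1).

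Among the lost probes, Z00009096-1 had log2 sample signals of 12.09 and 12.25 in ESC and 6.72 and 6.72 in TE, at least 43.9-fold lower, and its ratio changed by -3.67 (SE 0.16, adjusted p = 3.49e-05). It was bright on both ESC arrays and at background on both TE arrays. Z00032042-1 went from 11.01 and 10.44 to 6.41 and 6.83, at least 17.0-fold lower, and its ratio changed by -2.93 (SE 0.20, adjusted p = 0.000128). The reference signal changed by -1.79 at Z00009096-1 and by -1.18 at Z00032042-1. Their ratios therefore fell less than the sample, by 12.7-fold and 7.63-fold. Z00027126-1, Z00074210-1 and Z00062396-1 were at least 15.5-fold, 14.2-fold and 10.4-fold lower, with reference changes of -0.16, -0.10 and -0.23. The largest losses were thus smaller than the largest gains, and the ESC arrays of Z00027126-1 differed most from each other, at 11.65 and 10.05.

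The share of probes called rose with signal. When the tested probes were split into quintiles of mean sample signal over the 4 lamin B null arrays, 17.5% of the dimmest quintile was called, then 45.3%, 61.9%, 67.1% and 69.7% of the brightest, against 52.3% over all. Higher and lower calls numbered 509 and 449 in the dimmest, 1382 and 1095 in the next, 1750 and 1636 in the middle, 2014 and 1658 in the next brighter and 1917 and 1899 in the brightest quintile. After loess, the split was most even at the top and most uneven in the second dimmest, where 55.8% of calls were higher. Loess removes a trend of the ratio with intensity, and the split by quintile was not counted after median centring. The median size of the change, without its sign, was 0.22 in the dimmest quintile, 0.54 in the next, and then 0.88, 0.92 and 0.90, so it levelled off from the middle upwards.

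The number of 4-fold changes rose from the dimmest to the middle quintile, and the brightest quintile held fewer than the middle one. The dimmest quintile held none, but it was cut on the same 4 arrays and a probe that changed 4-fold would seldom stay in it. The next held 161 higher and 63 lower. The middle held 597 higher and 407 lower, the next brighter 598 and 401, and the brightest 519 and 274. The dimmest quintile also held most of the probes that crossed background, 1202 gained and 504 lost. An offset of 50 added to each signal draws the ratios of dim spots towards 0. With an offset of 10 the median size of the change in the dimmest quintile was 0.37 in place of 0.22, in the brightest it stayed at 0.90, and 23.6% of the dimmest quintile was called. When the quintiles were made from the reference signal instead, 23.9% of the dimmest and 69.4% of the brightest were called. The reference is part of the ratio too, and its dimmest quintile held 1100 gained and 506 lost probes. The cause of the rise was not tested. The dimmest quintile of reference signal held 86 probes at least 4-fold higher and 29 lower, and the brightest held 547 and 353. After median centring, with quintiles of sample signal, 3.40% of the dimmest and 37.3% of the brightest were called.

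**Figure D4:**
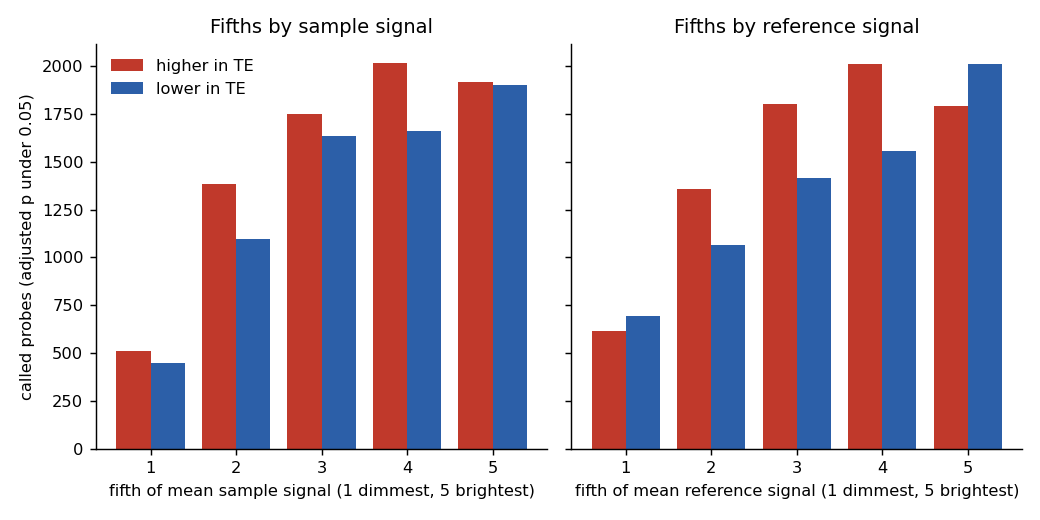
Bars count called probes in lamin B null cells in quintiles of mean sample signal (left) and of mean reference signal (right), numbered from dimmest (1) to brightest (5), with rises in red and falls in blue. On the left, rises and falls go from 509 and 449 in the dimmest quintile to 1917 and 1899 in the brightest, and on the right lower calls outnumber higher ones in the dimmest and the brightest quintile only. Values were normalized by loess.

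The change came from the sample channel at nearly all probes. With the channels separated after loess and Aquantile normalization, the sample signal changed at least 2-fold at 9442 probes (34.5%) and the reference signal, which came from 1 RNA mixture on both slides, at 133 (0.486%). The standard deviation of the change was 1.35 in the sample and 0.21 in the reference. Of the 8742 probes called with at least a 2-fold change of the ratio, 8203 changed at least 2-fold in the same direction in the sample channel, and of the 3020 called at 4-fold, 2862 changed at least 4-fold there.

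The reference was not constant at some of the probes that moved most. Of the 133 probes with at least a 2-fold change of the reference, 105 were higher in TE in both channels, 14 were lower in both and 14 moved in opposite directions. A reference change of at least 2-fold and the same sign was seen at 71 of them on the wild-type arrays, which lay on the same slides. Among the 136 probes whose sample signal rose more than 32-fold, the median change of the reference was 0.46, and among the 50 that fell more than 32-fold it was -0.13. What moved the reference signal was not tested. The clearest cases were these probes:
Z00046756-1: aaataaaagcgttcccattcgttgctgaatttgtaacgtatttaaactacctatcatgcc
Z00005466-1: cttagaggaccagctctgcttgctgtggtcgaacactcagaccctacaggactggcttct
Z00065255-1: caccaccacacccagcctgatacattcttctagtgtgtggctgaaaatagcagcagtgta

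At Z00046756-1 the mean spot intensity of the sample was 89.0 and 84.6 on the ESC arrays and 4049 and 7222 on the TE arrays, while that of the reference was 84.6 and 90.2 on the ESC arrays and 2704 and 5463 on the TE arrays. Both channels were dim with ESC and both were bright with TE. The sample changed by 5.99 and the reference by 4.99, which left a change of the ratio of 1.00 (SE 0.14, adjusted p = 0.00148). At Z00005466-1 the sample went from 198 and 278 to 30508 and 69992, and the reference from 204 and 210 to 4161 and 10534, so that a sample change of 7.51 became a ratio change of 2.78 (SE 0.40). Z00065255-1 was lower with TE in both channels, with a change of -5.56 in the sample and -2.70 in the reference, which left a change of -2.86 (SE 0.11). For such probes the ratio gives a smaller change than the sample signal. At others it gives a larger one. The reference changed by -1.99 at Z00024159-1, whose sample rose by 5.71 and ratio by 7.69. At Z00034687-1 the reference changed by 1.01 and the sample by -6.06, against -7.07 in the ratio, and at Z00031972-1 the reference changed by 1.03 and the sample by -5.57, against -6.60 in the ratio. Of the 3351 probes whose sample signal changed at least 4-fold, 57 were not called by the ratio and 5 had a ratio change under 2-fold, all 5 with a reference change of at least 2-fold.

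**Figure D5:**
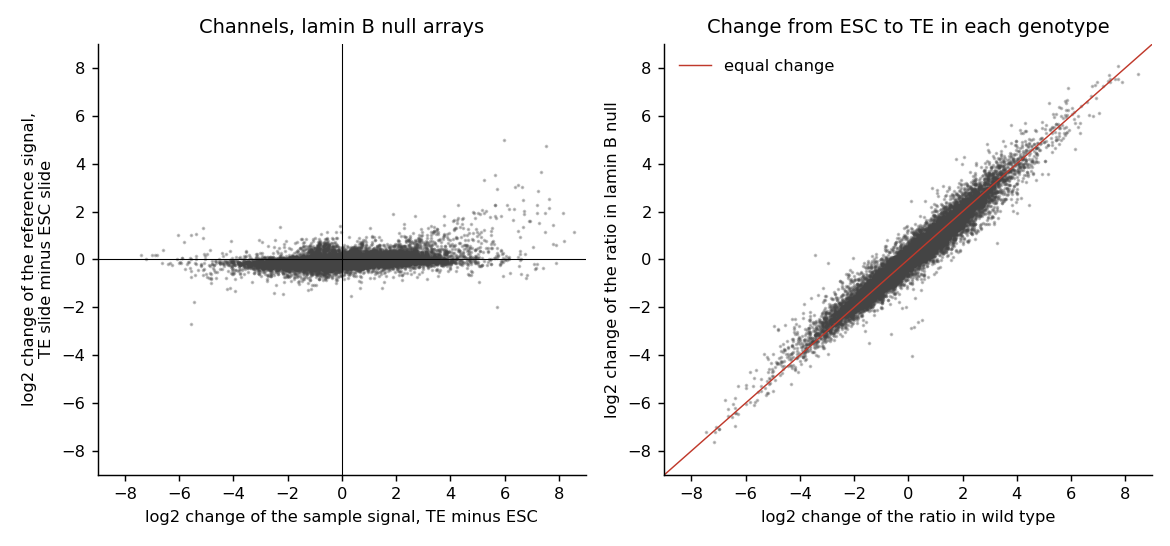
The left panel plots, for each tested probe of the lamin B null arrays, the log2 change of the reference signal between slides against the log2 change of the sample signal from ESC to TE, and the reference stays near 0 at most probes, reaches 4.99 among probes with large sample rises, and moves at some probes with large falls too, down to -2.70. The right panel plots the log2 change of the ratio from ESC to TE in lamin B null cells against that in wild-type cells, with a red line at equal change, and points lie along the line over the whole range.

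Probes with related sequences were compared within the array, after the values were seen. Pairs of tested probes that shared a run of at least 30 bases numbered 768, over 1273 probes. Across these pairs the changes correlated with r = 0.99, and the difference between partners had a standard deviation of 0.24. Both partners were called in 458 pairs, always in the same direction, 1 partner in 42 and neither in 268. In 109 pairs both partners changed at least 4-fold, in all of them the same way. Such partners can bind the same or near-identical transcripts and are not independent measurements.

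Of the families of at least 5 linked probes, the one with the largest change fell by a median of 3.60, or 12.2-fold. All 5 of its probes were called lower, against 24.6% of all tested probes, with a run common to all in capitals:
Z00030367-1: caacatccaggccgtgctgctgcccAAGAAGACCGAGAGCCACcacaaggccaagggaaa
Z00033752-1: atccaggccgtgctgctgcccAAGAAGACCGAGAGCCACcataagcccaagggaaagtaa
Z00030368-1: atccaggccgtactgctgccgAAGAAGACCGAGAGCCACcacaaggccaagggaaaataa
Z00032026-1: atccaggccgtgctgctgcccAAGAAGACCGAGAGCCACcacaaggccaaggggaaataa
Z00059316-1: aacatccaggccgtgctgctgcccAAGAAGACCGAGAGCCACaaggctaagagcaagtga

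These probes read 0.49 to 0.66 on ESC replicate 1 and 0.08 to 0.31 on ESC replicate 2, against -3.40 to -2.61 and -3.45 to -2.76 on the TE arrays. The ESC and TE arrays were far apart at every one of them. Their changes ran from -3.88 (Z00030368-1, SE 0.49, adjusted p = 0.000939) to -3.03 (Z00059316-1, SE 0.37, adjusted p = 0.000832). In the wild type the median change was -3.26 and all 5 were called lower as well. Another family rose by a median of 2.66, or 6.33-fold, with all 5 of its probes called higher, against 27.7% of all tested probes:
Z00030790-1: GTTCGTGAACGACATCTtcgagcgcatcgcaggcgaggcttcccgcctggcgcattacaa
Z00033615-1: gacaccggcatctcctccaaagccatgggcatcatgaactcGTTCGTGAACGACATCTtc
Z00030792-1: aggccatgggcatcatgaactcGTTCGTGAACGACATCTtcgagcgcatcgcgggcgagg
Z00030787-1: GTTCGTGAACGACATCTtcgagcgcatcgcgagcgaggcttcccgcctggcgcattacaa
Z00030789-1: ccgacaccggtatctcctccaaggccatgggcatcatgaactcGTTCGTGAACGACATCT

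Its members read -0.64 to -0.53 and -1.12 to -0.98 on the ESC arrays and 1.78 to 2.01 and 1.71 to 1.90 on the TE arrays. The range from the lowest to the highest change within the family was narrow, 2.56 (SE 0.20) to 2.83 (SE 0.21), and the wild-type median was 2.57. Both families lay in the top quintile of signal. In the sample channel alone the first family had a smaller median change, -2.52, and at its member Z00030367-1 the reference rose by 1.34 while the sample changed by -2.27. The second family had a median of 2.87 there. Both kept their direction and all 5 calls under median centring, without background subtraction, with an offset of 10, with the scanner's processed signals and in the sample channel alone.

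The 3 other families changed less. Over all tested probes 24.6% were called lower and 27.7% higher. A family of 16 probes fell by a median of 1.60, or 3.04-fold, with 15 called lower. A family of 7 bright probes fell by a median of 0.97, with all 7 called lower. A family of 8 probes rose in value by a median of 0.81 but had 0 calls, at adjusted p-values of 0.0534 for Z00075783-1 and above for the rest, and its wild-type median was 0.34. Under the same settings, between 13 and 16 probes of the first of these families and 2 to 7 of the second were called lower, with 2 in the sample channel alone, and between 0 and 2 of the third were called higher.

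Partners differed by more than 2-fold in 9 pairs, 5 of which involve Z00073041-1 of the 16-probe family. The widest gap was between the following probes, with the shared run in capitals:
Z00041156-1: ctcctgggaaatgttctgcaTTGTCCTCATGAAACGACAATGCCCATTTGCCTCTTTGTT
Z00059773-1: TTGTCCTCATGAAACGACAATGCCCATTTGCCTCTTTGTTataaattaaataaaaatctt

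Z00041156-1 read -1.29 and -1.69 in ESC and 1.80 and 0.67 in TE, a change of 2.73 (SE 0.45, adjusted p = 0.00282). Z00059773-1 read -1.13 and -1.32 in ESC and -0.05 and -0.47 in TE, a change of 0.97 (SE 0.28, adjusted p = 0.0254). The partners read alike in ESC and apart in TE, and the difference between them was not tested.

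A few probes could be placed on the genome by an exact match to the windows from 250 bases before to 50 bases after annotated gene starts of RefSeq on GRCm38.p6. Windows on 1 chromosome were left out of this search. Of the probes on the array, 267 matched a window and 257 of them a single place. On the strand of 1 gene alone there were 118, of which 82 were tested, 15 called higher and 12 called lower, or 32.9% called against 52.3% over all tested probes. A match places the probe near that start and does not show that the gene's own transcript was measured. The following were chosen after their values were seen, as the 3 largest rises and falls, of which the first 2 each are printed, once windows of predicted genes were left aside:
Z00032425-1: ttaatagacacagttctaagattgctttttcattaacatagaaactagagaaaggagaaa
Z00056199-1: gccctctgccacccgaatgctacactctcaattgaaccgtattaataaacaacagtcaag
Z00075310-1: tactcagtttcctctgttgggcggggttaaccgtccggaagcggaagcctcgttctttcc
Z00032009-1: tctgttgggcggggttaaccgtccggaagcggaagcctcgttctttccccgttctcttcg

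Z00032425-1 lies at chr17:6137920-6137979 on the plus strand, upstream of the start of Tulp4, and rose by 2.22 (SE 0.16, adjusted p = 0.000135), against 2.62 in the wild type. Z00056199-1 lies at chr7:3665794-3665853 on the minus strand and spans the start of Leng1, where it rose by 2.17 (SE 0.50, adjusted p = 0.0113). Z00075310-1 at chr11:114668526-114668585 and Z00032009-1 at chr11:114668538-114668597, both on the plus strand, overlap each other at the start of Rpl38, which encodes a protein of the large ribosomal subunit. They fell by 1.98 (SE 0.15, adjusted p = 0.000168) and by 1.68 (SE 0.17, adjusted p = 0.000446), and their partial overlap means that they are not independent. At chr17:35667753-35667812 on the minus strand near the start of Vars2, the gene of a mitochondrial tRNA synthetase, Z00034619-1 fell by 1.15 (SE 0.12, adjusted p = 0.000471), and near the start of Rab7, a gene of late endosome traffic, at chr6:88045112-88045171 on the minus strand, Z00074934-1 rose by 1.42 (SE 0.23, adjusted p = 0.00256).

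The changed probes differed little from the rest in base composition. The median GC content was 43.3% among the probes at least 4-fold higher, at least 4-fold lower, gained and lost alike, against 45.0% over all tested probes and over those not called.

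To ask which of these changes differ without B-type lamins, the change from ESC to TE was compared between genotypes in the same fit. In the wild type 15046 probes were called (55.0%), 8065 higher (29.5%) and 6981 lower (25.5%). No probe passed for the difference of the changes in that fit (0 called by limma, smallest adjusted p 0.132). An unadjusted p under 0.05 was given to 597 probes, or 2.18%, where chance alone would give 1368. For all tested probes the middle 80% of the differences lay between -0.33 and 0.36. The 95% interval of the difference lay within 2-fold for 67.8% of all probes but for 35.0% of the 4-fold rises of lamin B null cells and 36.9% of their 4-fold falls, so for most strongly changed probes the interval reached beyond a 2-fold difference.

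Probes chosen by a large change in lamin B null cells moved to a like extent in the wild type. The 1875 at least 4-fold higher had a median change of 2.71 in lamin B null and 2.68 in wild type, and 1813 were called higher there. The 1145 at least 4-fold lower had medians of -2.56 and -2.73, and 1132 were called lower there. Fewer than 2-fold changes in the wild type were seen at 8 of the higher and 8 of the lower probes. Chosen by the wild type instead, the 1325 probes at least 4-fold lower had medians of -2.41 in lamin B null and -2.65 in wild type, and the 1896 at least 4-fold higher had medians of 2.65 and 2.71. Probes picked for a large value in 1 genotype can be larger there through the picking alone, so the direction of these gaps is a description.

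The 3 probes with the smallest p for the difference are given here because they came closest to passing:
Z00032719-1: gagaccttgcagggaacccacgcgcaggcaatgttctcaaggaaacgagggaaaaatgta
Z00017768-1: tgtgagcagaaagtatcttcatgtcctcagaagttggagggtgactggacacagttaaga
Z00076367-1: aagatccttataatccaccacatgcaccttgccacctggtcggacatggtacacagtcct

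Z00032719-1 read -1.06 and -1.06 in lamin B null ESC, -1.10 and -0.64 in lamin B null TE, 1.97 and 2.26 in wild-type ESC, and -1.31 and -1.37 in wild-type TE. Its signal was high in wild-type ESC alone, so that the change was 0.19 without lamin B and -3.45 with it, a difference of 3.65 (SE 0.26, adjusted p = 0.132). Z00017768-1 read 0.83 and 0.87 in lamin B null ESC and -2.08 and -1.97 in lamin B null TE, against -2.24 and -2.12 in wild-type ESC and -1.85 and -2.32 in wild-type TE. It was high in lamin B null ESC alone, with a difference of -2.97 (SE 0.24, adjusted p = 0.149). Z00076367-1 read 2.88 and 2.55 in lamin B null ESC, 0.26 and 0.09 in lamin B null TE, and -1.89 to -1.09 on the 4 wild-type arrays, with a difference of -3.04 (SE 0.28, adjusted p = 0.218). In these 3 probes the gap between genotypes was larger in the ESC arrays than in the TE arrays. The TE arrays of the genotypes were close for the first 2 of them. At Z00076367-1 the TE arrays were also apart, at 0.26 and 0.09 in lamin B null and -1.58 and -1.09 in wild type. Z00032719-1 lay in the dimmest quintile of lamin B null sample signal and was above background on 1 lamin B null TE array.

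Arrays of the same number on the same slide shared part of their deviation between genotypes, with correlations across probes of 0.64 in ESC and 0.52 in TE. A fit with these pairs of arrays as blocks, added after the data were seen and leaving 2 residual degrees of freedom, called 1 probe for the difference, gave 1748 probes an unadjusted p under 0.05 (6.39%, against 1368 by chance), and placed the 95% interval within 2-fold for 81.0% of all probes, 57.5% of the 4-fold rises and 54.6% of the 4-fold falls. The low count of unadjusted p-values in the fit without the blocks was thus not kept, and the labels do not say that the numbers pair the arrays. The probe called was this one:
Z00055038-1: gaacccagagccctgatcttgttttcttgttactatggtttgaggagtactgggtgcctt

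Z00055038-1 read 3.47 and 2.27 in lamin B null ESC and 0.39 and -0.75 in wild-type ESC, and -1.43 and -0.88 in lamin B null TE and -0.35 and 0.23 in wild-type TE. Its replicates differed by a like amount in both genotypes on each slide. The difference of the changes was -4.14, with an SE of 0.14 and an adjusted p of 0.042 with the blocks and an SE of 0.74 and an adjusted p of 1 without them. The change was -4.03 (SE 0.53, adjusted p = 0.0011) in lamin B null cells and 0.12 in the wild type. The 3 probes above were not called with the blocks, at adjusted p-values of 0.191, 0.38 and 0.555.

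The wild-type TE arrays limited this comparison. Their ratios differed from each other with a standard deviation of 0.63 and were more than 2-fold apart at 2641 probes, against 0.24 and 94 for wild-type ESC. Without wild-type TE replicate 2, 104 probes passed for the difference and 5030 had an unadjusted p under 0.05. Without wild-type TE replicate 1, 0 passed and 1256 had an unadjusted p under 0.05. The difference had the same sign in both of these fits at 66 of the 104 probes. Z00032719-1, Z00017768-1 and Z00076367-1 were among the 104, at adjusted p-values of 0.0345 to 0.043, with the lone remaining wild-type TE array assumed to vary like the other groups. Without background subtraction 1 probe passed, Z00032719-1, at 3.38 (adjusted p = 0.0467).

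Among all tested probes, Z00070615-1 was called in opposite directions in the genotypes:
Z00070615-1: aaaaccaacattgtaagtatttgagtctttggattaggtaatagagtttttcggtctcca

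It read 0.79 and 0.65 in lamin B null ESC and 0.04 and -0.21 in lamin B null TE, a change of -0.80 (SE 0.14, adjusted p = 0.00403). In the wild type it read -1.26 and -1.46 in ESC and -0.75 and -0.85 in TE, a change of 0.56 (SE 0.14, adjusted p = 0.0164). The levels of the genotypes were further apart in ESC than in TE, and the difference of the changes, -1.36 (SE 0.20), had an adjusted p of 0.842.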

How the data were processed

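The 4 lamin B null arrays were compared, with the 4 wild-type arrays in the same fit. The comparison was picked by sample titles, and it and the marker lists, which went unused, were chosen with earlier results of these data known. The authors scanned them, per the file headers, with Agilent Feature Extraction 9.5.1.1 (protocol GE2-v5_95_Feb07), and the deposited intensity values are the mean spot signal and the median local background. Further deposited columns hold processed intensity values, a log10 ratio of red over green, and flags of 0 or 1, read here as a fraction of spots. The deposited summary table covers 25030 features in log10 values. On every array these tracked the log10 reference signal averaged over arrays less the log10 ratio of that array (correlation 0.9998 to 1.000, column medians of 2.27 to 2.33), which settled their scale and direction, while how the features were chosen is unknown.

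Here, normexp correction with an offset of 50 and loess within each array were run in limma 3.58.1 under R 4.3.3, with control and outlier spots left out. Repeated spots, present for 7 probes, were averaged. Of 27417 probes that passed the filter, 58 with an outlier spot were left out. On the 8 arrays 47.1% to 68.0% of the probes were well above background, and no spot was saturated. The number of arrays limits the precision. lmFit and eBayes fitted 4 group means on 8 arrays, leaving 4 residual degrees of freedom, with Benjamini-Hochberg adjustment and a threshold of 0.05. This fit was run on simulated data in which arrays varied independently and alike in all groups. The real arrays shared deviation within a slide, and the wild-type TE arrays varied more, so the run does not cover these features.

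Named probes are, among called probes whose ESC and TE arrays did not overlap, the 5 largest rises and falls detected on all 4 arrays, the 5 largest sample-channel folds among gained and among lost probes, 3 further rises and falls in the brightest quintile, and the 3 smallest p-values of the genotype difference. Alternatives covered background, centring, filters, the fit and leaving out each array. Lists of genes and markers could not be used without gene names, and results that need them are not reported here.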

Additional observations from a re-analysis of the deposited data

How the results depend on the processing

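The direction and the call of all 26 named probes of the lamin B null comparison held under every alternative in which they were tested. These probes were picked for large changes, so this does not extend to other probes. The count of 14309 calls fell to 7789 with median centring in place of loess, with 34.9% of the calls higher in TE. It was 10151 of 17083 probes with the deposited values, 12486 in the sample channel alone, 15837 with the scanner's processed signals and 15162 on the 4 lamin B null arrays alone. Leaving out each array gave 10595 to 16524 calls, of which 50.9% to 54.7% were higher. Probes at least 4-fold higher numbered 1097 with median centring, 3240 with processed signals and 1724 to 1924 with an array left out. At least 4-fold lower there were 1737, 2674 and 1018 to 1261. Median centring also took the share called to 3.40% in the dimmest and 37.3% in the brightest quintile. The cause of these shifts was not tested. Lost probes fell from 641 to 1 with each array's lowest detected signal as the limit, by the construction given above. For the genotype difference, 1 probe was called without background subtraction and 0 to 104 with an array left out.

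The replicate numbers of ESC and TE arrays shared no deviation (correlation -0.03 for lamin B null), while arrays on the same slide did (0.64 in ESC and 0.52 in TE, between genotypes). With the replicate number as a block, 14874 probes were called for the change and 0 for the difference (806 at an unadjusted p under 0.05). With a replicate block within slide, 1 was called for the difference. Alternatives chosen after seeing the data were that block within slide, the offset of 10 for the quintiles of signal and a filter on the lamin B null groups alone, which gave 14324 calls of 26808 probes. Depth limits the dim end: gained and lost probes lay close to background, and the offset shrinks their ratios.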
